A study of Mus musculus with 11 samples.

Results

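The second day of the conversion of mouse embryonic stem (ES) cells to epiblast-like cells (EpiLC) was examined by comparing the 5-hydroxymethylcytosine (5hmC) signal of the TET_WT line at day 2 (3 libraries, replicates 1 to 3) with that at day 1 (2 libraries, replicates 2 and 3), which makes 5 of the 11 libraries at hand. TET_WT is the wild-type parent of a triple knock-out line for Tet1, Tet2 and Tet3. Day 0 of TET_WT (3 libraries, ES cells kept in 2i/Lif) and day 2 of DNMT_WT (3 libraries, the wild-type parent of a Dnmt1, Dnmt3a and Dnmt3b triple knock-out) entered the same model and served as reference levels. No library of a knock-out line is used here. Nothing in the labels tells if replicates came from separate cultures, so the p-values measure the spread between these libraries only, and both time points come from 1 line. Since the libraries hold DNA, no marker RNA is at hand to check the labelled cell type.

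Cytosine methylation in mammals is written by the DNMT enzymes, mostly at CG dinucleotides (CpG), and the TET enzymes oxidise it to 5hmC. ES cells in 2i/Lif are in the naive state and carry little DNA methylation, and their conversion to EpiLC, which resemble the formative epiblast, is known for a broad gain of methylation and for the silencing of naive genes. In ES cells and other cells, 5hmC is found at enhancers and over gene bodies, and is scarce at CpG islands that stay unmethylated.

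The assay, HMCP-seq, captures DNA fragments that carry 5hmC with a commercial kit, here from 10 ng of sonicated DNA per library. The deposited values are log2 RPKM (reads scaled by tile length and by library total) in tiles of 2 kb. As they are scaled to the library, a rise or fall of 5hmC across the whole genome would not show. Of 1362779 tiles, 1316897 lay on chromosomes 1 to 19 and X and 1183888 were tested, after the 10% lowest and the 0.1% highest by mean were set aside. A gene value is the mean log2 RPKM over the tested tiles of the annotated gene plus 2 kb either side, and 20717 of 21631 protein-coding genes had the 3 tiles required. Differences are day 2 minus day 1 on the log2 scale with the standard error (SE) of the limma fit, and a call means a two-sided p under 0.05 after Benjamini-Hochberg adjustment over all genes (or all tiles).

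Depth was uneven. Whole reads could be read back from the values, and day 1 replicate 2 held 7342015 reads, against 27484281 in day 1 replicate 3 and 20223130 to 28084687 at day 2. A tile without reads stands at 0.9 reads in the deposited values, which is -2.81 in day 1 replicate 2 and between -4.27 and -4.75 in the other 4 libraries, so sparse tiles and genes sit higher in that library. Day 0 replicate 2 also stood apart, with 30.2% of tiles without reads at 29831997 reads, although day 1 replicate 3 had 21.5% at a lower depth.

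Many more genes were called higher than lower, while the differences of all genes split evenly, with 10387 of 20717 positive. Of 20717 genes 1986 were called (9.59%), 1862 higher at day 2 (8.99%) and 124 lower (0.599%), while the median difference over all genes was 0.00. The 5 libraries did not overlap, with day 2 higher, at 28.2% of genes, and with day 2 lower at 22.1%. The count called fell to 246 (236 higher, 10 lower) when each library was centred on its median tile, so the size of the set depends on the scaling. It was 966 without day 1 replicate 2 (949 higher, 17 lower), 999 higher and 95 lower after all libraries were thinned to equal depth, and 685 higher and 287 lower with voom, limma's model for counts, on the recovered reads. It was 3568 without day 0 replicate 2 (3012 higher, 556 lower), a library that bears on this comparison only through the common estimate of the spread. Called higher in all of the main fit, equal depth, voom and the fit without day 1 replicate 2 were 332 genes, and called lower in all of them were 4; median centring is not among these fits.

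**Figure D1:**
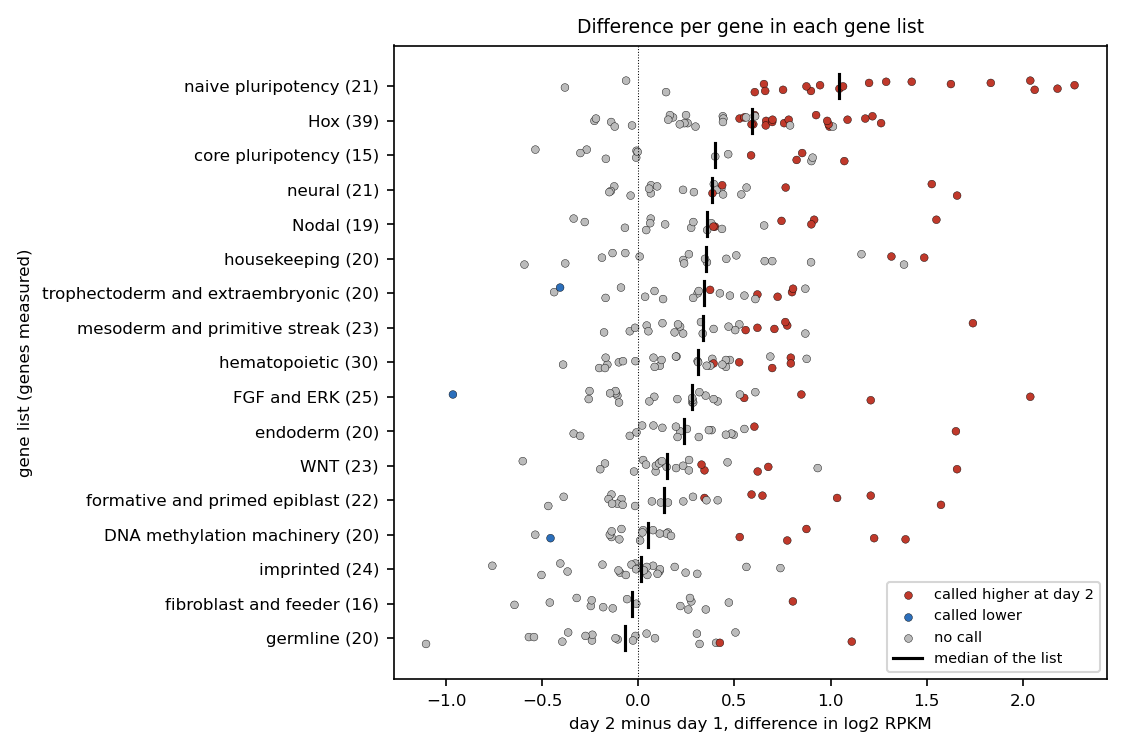
Difference in log2 RPKM between day 2 and day 1 for each measured gene of 17 gene lists (measured genes in brackets); red points were called higher, blue lower, grey not called, and the black bar is the median of the list. The list of naive pluripotency genes has a median of 1.05 with 18 of 21 genes called higher, and the imprinted list a median of 0.01 with 0 called. The lists were chosen with earlier results of these data known.

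Most listed genes of naive pluripotency were called higher at day 2. The shares of all genes given beside them are a description and not a test, since the list was chosen with earlier results of these data known. Of 21 measured genes 18 were called higher and 0 lower, the median difference was 1.05 against 0.00 over all genes, and 19 genes had day 2 libraries that all lay above both day 1 libraries (19 of 21, where 28.2% of all genes did). With voom 12 were called, at equal depth 13, without day 1 replicate 2 17, without day 1 replicate 3 12, with median centring 10 and over gene spans with no extension 12, and in each of these 0 were lower. Of all 20717 genes, 999 were called higher at equal depth, 685 with voom, 236 with median centring and 949 without day 1 replicate 2. The count was 3012 without day 0 replicate 2. The 8.99% set beside the lists below is the share in the main fit. The members called in the main fit, at equal depth, with voom and without day 1 replicate 2 numbered 11 of 21. Of all 20717 genes 332 were called higher in the same fits. No call was made for Nr5a2, a nuclear receptor (0.14), for Stat3, the transducer of LIF signalling (-0.06), or for Nr0b1, an X-linked orphan nuclear receptor (-0.38, adjusted p = 0.672 with limma).

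Promoters of genes from both ends of the changes are shown, because the share of genes called differed with promoter CpG content, as described further on. Each line gives the 250 bases before the annotated start from RefSeq (GRCm38.p6), 5′ to 3′ on the strand of the gene, with every CpG in capitals. Nanog lies on the plus strand (chr6:122707239-122707488), Zfp42 on the minus strand (chr8:43307010-43307259), Aqp3 on the minus strand (chr4:41098184-41098433), Klf4 on the minus strand (chr4:55532476-55532725) and Prss1 on the plus strand (chr6:41458680-41458929). They hold 3, 9, 14, 32 and 0 CpG in that order.
Nanog: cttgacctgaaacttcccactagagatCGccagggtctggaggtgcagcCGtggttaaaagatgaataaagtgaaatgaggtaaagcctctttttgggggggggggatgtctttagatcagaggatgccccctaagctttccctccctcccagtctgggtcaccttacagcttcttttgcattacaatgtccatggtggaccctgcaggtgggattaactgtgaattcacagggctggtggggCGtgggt
Zfp42: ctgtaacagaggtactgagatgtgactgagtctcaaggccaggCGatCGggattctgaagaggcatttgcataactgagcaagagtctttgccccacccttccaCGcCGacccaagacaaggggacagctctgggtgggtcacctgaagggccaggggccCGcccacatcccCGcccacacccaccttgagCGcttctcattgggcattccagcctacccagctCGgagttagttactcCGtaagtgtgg
Aqp3: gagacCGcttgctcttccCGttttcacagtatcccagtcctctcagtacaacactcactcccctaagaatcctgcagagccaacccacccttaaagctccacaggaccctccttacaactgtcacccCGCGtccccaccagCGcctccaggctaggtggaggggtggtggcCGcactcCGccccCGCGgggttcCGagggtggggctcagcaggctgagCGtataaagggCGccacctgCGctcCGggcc
Klf4: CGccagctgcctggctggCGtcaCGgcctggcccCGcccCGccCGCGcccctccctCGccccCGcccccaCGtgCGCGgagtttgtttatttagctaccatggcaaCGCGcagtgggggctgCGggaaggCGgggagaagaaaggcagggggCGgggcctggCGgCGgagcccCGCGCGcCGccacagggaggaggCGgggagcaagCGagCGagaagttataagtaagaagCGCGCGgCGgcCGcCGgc
Prss1: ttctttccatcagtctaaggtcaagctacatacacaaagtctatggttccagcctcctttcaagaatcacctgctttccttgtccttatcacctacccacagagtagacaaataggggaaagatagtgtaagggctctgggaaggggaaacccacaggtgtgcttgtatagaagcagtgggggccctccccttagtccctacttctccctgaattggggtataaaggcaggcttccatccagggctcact

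The tile over the start of Nanog, the homeobox factor of naive and core pluripotency, held 1 and 2 reads in day 1 replicates 2 and 3 and 20, 21 and 37 reads in day 2 replicates 1 to 3. Its difference was 3.33 (adjusted p = 0.000406 with limma over all tiles). At Zfp42 (Rex1), a zinc finger marker of the naive state, the start tile held 0 and 5 reads at day 1 and 25, 16 and 26 at day 2, a difference of 2.55 (adjusted p = 0.0342). The CpG-dense start of Klf4, a reprogramming factor, did not pass the test (1.30, adjusted p = 0.492, with 0 and 3 reads at day 1 and 5, 9 and 8 at day 2). The tile within Klf4 at chr4:55528001-55530000 did, with 0 and 1 reads at day 1 and 48, 39 and 34 at day 2 (4.58, adjusted p = 5.07e-06). The gains were not limited to the start, as 5 of 7 tiles of Nanog and 5 of 9 of Zfp42 were called higher, against 1 of 6 of Klf4.

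As whole genes, Tbx3, a T-box factor that sustains self-renewal, stood at a log2 RPKM of -1.41 and -2.06 in day 1 replicates 2 and 3 and at 0.55, 0.58 and 0.47 in day 2 replicates 1 to 3. The libraries of the 2 days are far apart, and the difference was 2.27 (SE 0.22, adjusted p = 0.000138 with limma). Klf2, a Krüppel-like factor kept up by 2i, stood at -1.91 and -1.84 at day 1 and at 0.13, 0.22 and 0.21 at day 2 (difference 2.06, SE 0.28, adjusted p = 0.000745). Socs3, a feedback inhibitor of LIF signalling, rose by 2.18 (SE 0.26), from -1.19 and -2.17 to 0.24, 0.76 and 0.49. Nanog went from -0.86 and -1.51 at day 1 to 0.55, 0.96 and 0.44 at day 2 (1.83, SE 0.28), and here too no day 2 library reached down to day 1. Fgf4, the growth factor ES cells secrete, was called at 2.04 from few reads, with 1 and 14 reads at day 1 and 93, 55 and 79 at day 2.

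Among the other naive genes, Tdh, threonine dehydrogenase, of which mouse ES cells make heavy use, was at -0.84 and -0.73 at day 1 and 0.59, 0.45 and 0.47 at day 2. Esrrb, an orphan nuclear receptor, was at 0.05 and -0.01 at day 1 and 1.06, 1.08 and 1.05 at day 2 (difference 1.05, SE 0.14), a narrow spread on both days. The difference of Esrrb was 0.55 with voom, and its call was lost in 1 of 15 alternatives. Zfp42 rose by 1.20 and Klf5 by 1.07, and Manba, a lysosomal mannosidase and marker of the naive state, by 0.90. Klf4 had a difference of 1.42 (adjusted p = 0.00144), which lost its call at equal depth (0.85, adjusted p = 0.0547) and with voom (0.63, adjusted p = 0.11). Smaller gains were called at Tcl1 (0.75), a co-activator of AKT, at Prdm14 (0.65), a repressor of methylation in naive and germ cells, and at Dppa3 (0.61). Dppa5a (1.63, adjusted p = 0.0495) and Tet2 (0.87, adjusted p = 0.0485) were called close to the threshold.

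**Figure D2:**
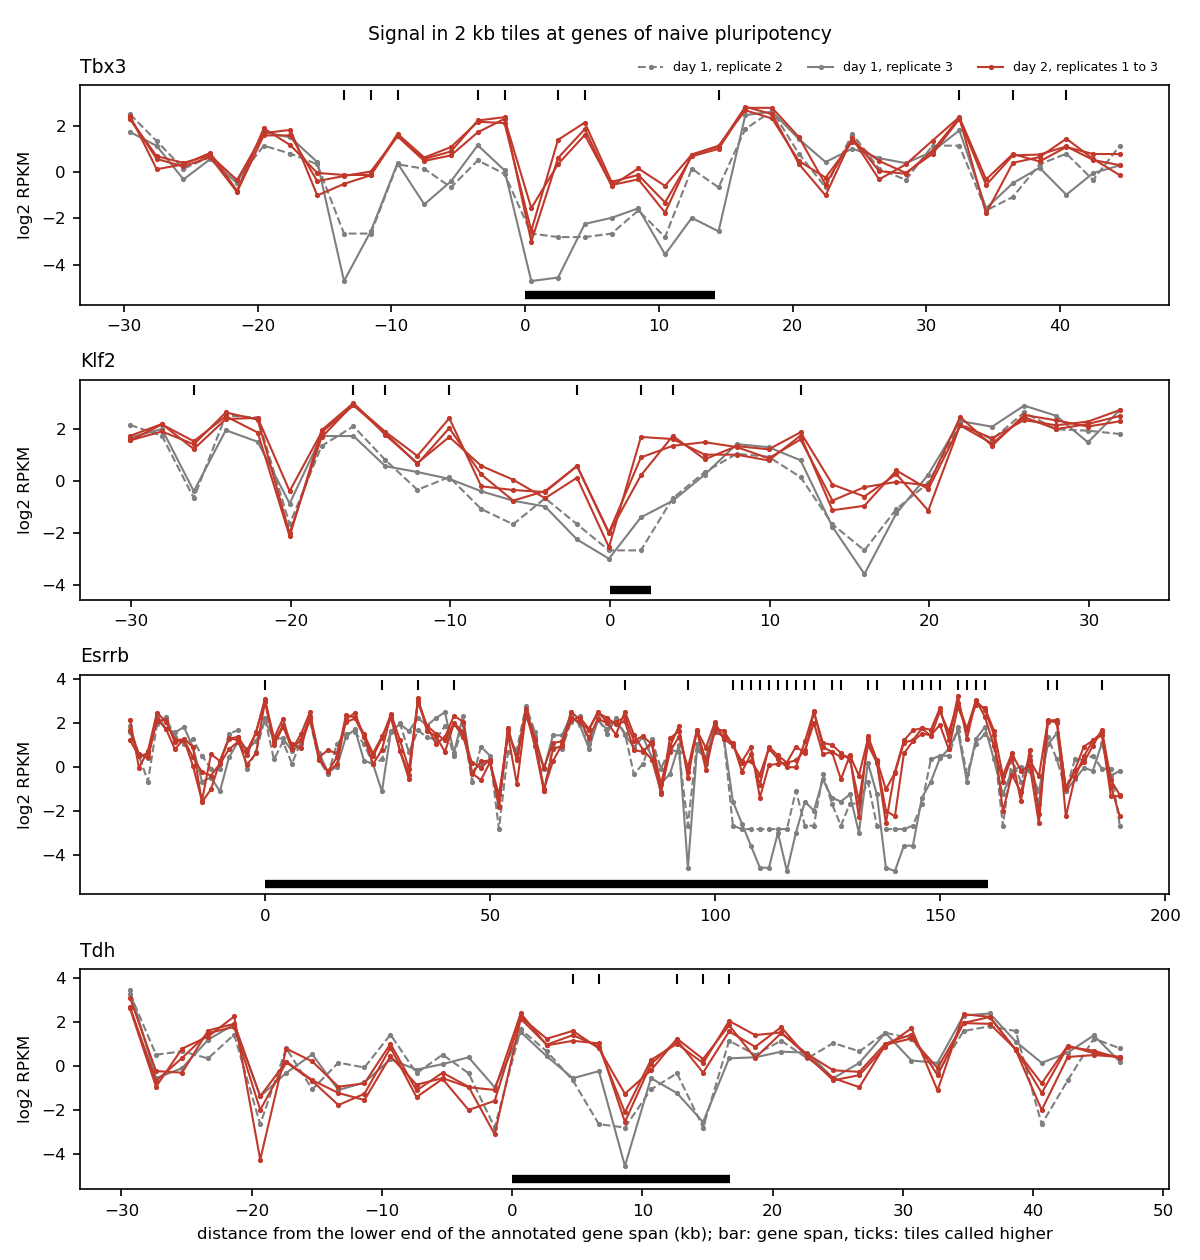
Log2 RPKM of 2 kb tiles across Tbx3, Klf2, Esrrb and Tdh with 30 kb on either side, by distance in kb from the lower end of the annotated gene; each line is a library (grey day 1, dashed for replicate 2, and red day 2), the black bar is the gene and ticks mark tiles called higher. In Esrrb the day 1 lines run low over 10 adjacent tiles of the 3′ part of the gene, where the day 2 lines do not. These tiles held 6 and 36 reads in day 1 replicates 2 and 3 and 437, 324 and 368 in day 2 replicates 1 to 3. A tile without reads stands at -2.81 in day 1 replicate 2 and at -4.72 in replicate 3.

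Inside Esrrb 29 of 83 tiles were called higher and 3 lower. The densest stretch was 10 adjacent tiles at chr12:86464001-86484000, within the gene, which held 6 and 36 reads at day 1 and 437, 324 and 368 reads at day 2. Its mean log2 RPKM was -2.85 at day 1 and 0.55 at day 2, and -3.18 at day 0. The tile with the largest difference in the gene held 1 and 6 reads at day 1 and 138, 98 and 94 at day 2 (4.65, adjusted p = 5.55e-20 with limma over all tiles). Over the start of Esrrb the difference was 0.89, so the gain was larger in the 3′ part than at the start. In Tbx3 4 of 10 tiles were called higher, the largest of them at chr5:119672001-119674000 with 0 and 1 reads at day 1 and 37, 46 and 30 at day 2.

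The factors shared by naive and primed cells came next. The core pluripotency list had 4 of 15 members called higher, where 8.99% of all genes were, 0 called lower and a median of 0.40. The count was 4 at equal depth, 2 with voom, 1 with median centring and 1 without day 1 replicate 3. Called higher in all of the main fit, equal depth, voom and the fit without day 1 replicate 2 was 1 member. Of all 20717 genes 332 were. Cdh1, E-cadherin, rose by 1.07 (SE 0.10, adjusted p = 0.000105), from 0.12 and 0.21 at day 1 to 1.18, 1.27 and 1.26 at day 2, and was not called with voom (0.25, adjusted p = 0.0626). Sall4, a zinc finger partner of OCT4, rose by 0.82, and Sall1 and Dppa2 by 0.59 and 0.85. The genes of the central pair of factors held few reads and were not called: Pou5f1 (OCT4) held 4 and 27 reads at day 1 and 37, 28 and 22 at day 2 (-0.17, adjusted p = 0.817), and Sox2 0 and 15 reads at day 1 and 24, 17 and 14 at day 2 (-0.0038). At that depth a difference at Pou5f1 or Sox2 was not detectable unless large, as the SE of 0.38 for each shows.

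Formative and primed epiblast genes, which EpiLC switch on, had 6 of 22 members called higher, beside 8.99% of all genes, 0 lower, and a median of 0.14. The count was 4 at equal depth and with voom, and 3 with median centring or without day 1 replicate 2. Called higher in all of the main fit, equal depth, voom and the fit without day 1 replicate 2 were 2 members. Of all 20717 genes 332 were. Etv5, an ETS factor downstream of FGF signalling, rose by 1.21 (SE 0.15, adjusted p = 0.000408 with limma), from -0.16 and -0.65 to 0.77, 0.92 and 0.72. Foxd3, a forkhead factor of the exit from the naive state, rose by 1.57 from -1.95 and -1.55 to 0.11, -0.04 and -0.60, and Cldn6, a tight junction protein, by 1.03. Both genes were higher in each day 2 library than in either day 1 library. The best known EpiLC markers stood elsewhere: Fgf5 at 0.41 (adjusted p = 0.249), Pou3f1 (OCT6) at -0.14 (adjusted p = 0.746) and Otx2 at 0.59 (adjusted p = 0.0351). Otx2 lost its call in 10 of 15 alternatives and stood at -0.01 with voom. Cdh2, N-cadherin, which had the largest difference of opposite sign, was at -0.47 (adjusted p = 0.339), and was called lower without day 0 replicate 2 (adjusted p = 0.0335).

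Of 20 genes of the methylation machinery 5 were called higher and 1 lower, beside 8.99% and 0.599% of all genes, with a median of 0.05. Called higher were 3 at equal depth, 2 with voom, 1 with median centring or the replicate block, and 3 without either day 1 library. In all of the main fit, equal depth, voom and the fit without day 1 replicate 2, 2 of the genes were called higher. Of all 20717 genes 332 were. Uhrf1, which brings DNMT1 to replicating DNA, rose by 1.23 (SE 0.18, adjusted p = 0.00122), from 0.12 and -0.03 at day 1 to 1.25, 1.31 and 1.26 at day 2. Zfp57, a zinc finger protein that keeps imprints methylated, rose by 1.39. The tile in Zfp57 at chr17:37008001-37010000 was among the 5 largest gains of tiles with at least 20 reads, with 0 and 1 reads at day 1 and 48, 53 and 57 at day 2. The dioxygenase genes themselves differed: Tet1 was called higher at 0.53 (adjusted p = 0.0169) and Tet2 at 0.87, and Tet3 was not called (0.11, adjusted p = 0.539). Tet1 lost its call in 6 of 15 alternatives and Tet2 in 9, among them the fits without day 1 replicate 2 (Tet1) and without day 1 replicate 3 (Tet2). None of the DNMT genes was called, with Dnmt1 at 0.01, Dnmt3a at 0.15, Dnmt3b at -0.14 and Dnmt3l, the partner of the de novo enzymes, at -0.09, each with an SE of at most 0.13. Mbd1, a methyl-CpG binding protein, was the gene called lower (-0.46, adjusted p = 0.0468), but no gene of the list was called lower in 12 of 15 alternatives, equal depth and voom among them, and Smug1, a uracil glycosylase, rose by 0.77.

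Some signalling genes rose, and the list counts were small, beside 8.99% called higher and 0.599% called lower of all genes. In the FGF and ERK list 4 of 25 genes were called higher and 1 lower (median 0.28): besides Fgf4 and Etv5, the receptors Fgfr3 (0.85) and Fgfr1 (0.55) rose, while Dusp6, the phosphatase that switches ERK off, fell by 0.97 from -0.26 and -0.62 to -1.69, -1.40 and -1.12. Dusp6 held 44 and 170 reads at day 1 and 106, 85 and 116 at day 2, no tile of it was called, and its difference was -0.33 at equal depth (adjusted p = 0.518). The list had 2 called higher and 0 lower without day 1 replicate 2 and 7 and 1 without day 0 replicate 2. Of its genes, 2 were called higher in all of the main fit, equal depth, voom and the fit without day 1 replicate 2. Of all 20717 genes 332 were. In the Nodal list 6 of 19 genes were called higher and 0 lower (median 0.36), where 8.99% of all genes were called higher. It was 3 at equal depth and without day 1 replicate 2, 2 without day 1 replicate 3 or with the replicate block, 1 with median centring, 4 with voom and 9 without day 0 replicate 2. Smad7, an inhibitor of the pathway, rose by 1.55 (SE 0.15, adjusted p = 0.000147), from -0.90 and -0.94 to 0.50, 0.88 and 0.51, with 11 of its 17 tiles called higher. Lefty2, a secreted antagonist of Nodal, rose by 0.74, and Tdgf1 and Gdf3, a co-receptor and a ligand, by 0.90 and 0.91. Of the Nodal list 1 gene was called higher in the main fit, at equal depth, with voom and without day 1 replicate 2. The WNT list had 5 of 23 called higher and 0 lower (median 0.15), and 2 at equal depth or without either day 1 library, 1 with median centring and 8 without day 0 replicate 2. In the WNT list 1 gene was called higher in all of the main fit, equal depth, voom and the fit without day 1 replicate 2, as were 332 of all 20717 genes. The list was led by the receptor Fzd5, which rose by 1.66 from -2.11 and -2.51 to -0.71, -0.53 and -0.73. Fzd7, another receptor, had the largest difference of the opposite sign (-0.60, adjusted p = 0.288).

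Among genes of later lineages, which neither cell state is known to transcribe strongly, the Hox genes stood out by count in the main fit. Of 39 Hox genes 19 were called higher, beside 8.99% of all genes, and 0 lower, the median was 0.59, and 34 had a positive difference. Hoxc6 rose by 0.99 (SE 0.10, adjusted p = 0.000231), from 0.10 and 0.19 at day 1 to 1.11, 1.06 and 1.23 at day 2, and Hoxb6 by 1.22 from -0.28 and -0.58 to 0.65, 0.78 and 0.93. Hoxb7, the neighbour of Hoxb6, stood at -0.23 (adjusted p = 0.486). Neighbouring Hox genes share tiles, so the 19 are not 19 separate measurements, and the count was 7 at equal depth, 4 with voom, 5 with median centring, 10 over gene spans with no extension and 11 without day 1 replicate 2, each time with 0 lower. Called higher in the main fit, at equal depth, with voom and without day 1 replicate 2 were 3 of the 39 Hox genes. Of all 20717 genes 332 were. No Hoxd gene was called in the main fit.

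The blood and endothelial list, of interest because the mesoderm that gives rise to blood forms from the epiblast, had 5 of 30 genes called higher and 0 lower, with a median of 0.31, beside 8.99% called higher of all genes. The count was 5 with voom, 2 at equal depth and 0 with median centring. It was 3 without day 1 replicate 2 and 10 (with 1 lower) without day 0 replicate 2. Of the 30, 1 gene, Pecam1, kept its call in the main fit, at equal depth, with voom and without day 1 replicate 2. Of all 20717 genes 332 were called higher in these fits. Pecam1, an adhesion molecule of endothelium that naive ES cells also carry, rose by 0.79 (SE 0.10) from 0.72 and 0.94 to 1.61, 1.62 and 1.64. Lyl1, a transcription factor related to Tal1, rose by 0.79, and Gata2 by 0.52 (adjusted p = 0.0383), a call lost in 9 of 15 alternatives. The blood master regulators Tal1 and Runx1 were not called (0.36 and -0.17, adjusted p = 0.201 and 0.312), nor was Kdr, the VEGF receptor (-0.39, adjusted p = 0.0697).

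Mesoderm and streak genes numbered 23, with 6 called higher, beside 8.99% of all genes in the main fit, and 0 lower (median 0.33). The count was 3 at equal depth, 2 with voom and 1 with median centring. It was 4 without day 1 replicate 2 and 10 without day 0 replicate 2. Snai1, a repressor of E-cadherin in cells that leave the epithelium, rose by 1.74 from -0.23 and 0.45 to 1.74, 1.98 and 1.84, and Foxf1 and Hand1 rose by 0.76 and 0.62. The neural list had 5 of 21 called higher (median 0.39), among them Olig2 (1.53), a factor of oligodendrocyte and motor neuron precursors, and the endoderm list 2 of 20 (median 0.23), Trh, the precursor of thyrotropin-releasing hormone (1.65), and Foxa3 (0.60), with 0 lower in either list. Neural genes called were 3 at equal depth and 2 with voom, with median centring or without day 1 replicate 2. Endoderm genes called numbered 2 of 20, near the 8.99% of all genes, 0 with voom, 1 without day 1 replicate 2 and 4 without day 0 replicate 2, and Foxa3 lost its call in 6 of 15 alternatives. Of 20 trophectoderm and extraembryonic genes 5 were called higher and 1 lower (median 0.34). The gene called lower was Lama1, a laminin chain, at -0.41 (adjusted p = 0.0153), from 1.09 and 1.11 to 0.68, 0.68 and 0.72, and 9 of its 66 tiles were called lower and 2 higher. Lama1 lost its call in 7 of 15 alternatives, and the list had 2 higher at equal depth, 1 with voom or without day 1 replicate 2, 0 with median centring and 9 without day 0 replicate 2. Germline genes had 2 of 20 called higher, Nanos3 (1.11) and Zp3 (0.42), and a median of -0.07, a share near that of all genes. Zp3 lost its call in 10 of 15 alternatives, and 0 germline genes were called with voom or median centring. Called higher in the main fit, at equal depth, with voom and without day 1 replicate 2 were 1 mesoderm and 1 neural gene. In the endoderm, trophectoderm and germline lists the number was 0, and of all 20717 genes 332 were called higher in these fits.

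Imprinted genes, whose methylation is set in the germline, served as a contrast, beside 9.59% of all genes called in either direction. At that share a list of 24 genes would hold few calls, so a count of 0 does not set these genes apart. Of 24 genes 0 were called in either direction, with a median of 0.01 and differences from -0.76 at Snrpn (adjusted p = 0.298) to 0.74 at Phlda2 (adjusted p = 0.06). Without day 0 replicate 2 both Phlda2 (adjusted p = 0.0402) and Dlk1 (0.56, adjusted p = 0.0407) were called higher, as they were with the replicate block, and with voom 1 imprinted gene was called lower. Of 20 housekeeping genes 2 were called higher, the translation factor gene Eef2 (1.49) and the ATP synthase gene Atp5b (1.32), and 0 lower, with a median of 0.35, as large as that of the mesoderm list, and 4 were called without day 1 replicate 2 or without day 0 replicate 2 and 0 without day 1 replicate 3. Of 16 fibroblast and feeder genes 1 was called higher, Thy1 (0.80), a surface protein of fibroblasts among other cells, and 0 lower, with a median of -0.03. In the housekeeping list and in the fibroblast and feeder list the share called higher was near the 8.99% of all genes. Called higher in the main fit, at equal depth, with voom and without day 1 replicate 2 was 1 housekeeping gene. In the fibroblast and feeder list the number was 0.

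**Figure D3:**
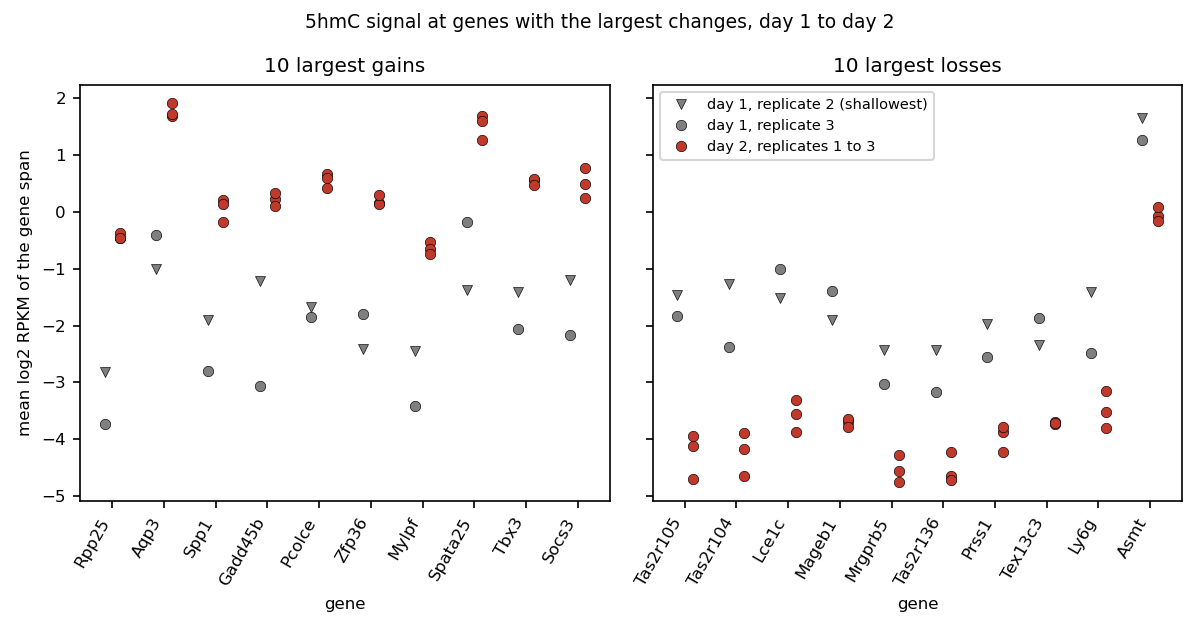
Mean log2 RPKM per gene in each of the 5 libraries for the 10 largest gains (left) and the 10 largest losses (right) among called genes whose days do not overlap; grey is day 1 (the triangle is the shallow replicate 2) and red is day 2. All genes of the left panel rise by 2.18 or more, and in the right panel Asmt alone has values above 0 at day 1 (1.65 and 1.26).

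The 10 largest gains among called genes whose libraries did not overlap ran from 2.18 to 2.84, predicted genes and olfactory and vomeronasal receptors aside. Rpp25, a protein subunit of RNase P and RNase MRP, rose by 2.84 (SE 0.26), with 0 and 7 reads at day 1 and 56, 55 and 53 at day 2. Aqp3, a channel for water and glycerol, rose by 2.47 (SE 0.21, adjusted p = 0.000102) from -1.01 and -0.41 to 1.68, 1.90 and 1.71, and all 6 of its tiles were called higher. The start tile of Aqp3, whose promoter is printed above, held 3 and 8 reads at day 1 and 75, 77 and 90 at day 2 (3.22, adjusted p = 2.82e-10 with limma over all tiles). Spp1 (osteopontin, a secreted matrix protein) rose by 2.41, Gadd45b (a stress-induced protein) by 2.36, Pcolce (an enhancer of collagen processing) by 2.33 and Zfp36 (an mRNA-destabilising protein) by 2.29. Mylpf, a light chain of fast muscle myosin, rose by 2.28, as did Spata25, a testis protein, and the naive genes Tbx3 and Socs3 complete the set. None of the 10 lost its call in any alternative in which it was measured, but the sizes moved. Gadd45b stood at 1.49 at equal depth and 1.44 with voom, and Pcolce at 1.88 and 1.49. Rpp25 and Mylpf were smaller at equal depth (2.34 and 1.74) and larger with voom (3.65 and 3.18).

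The 10 largest losses were of another kind. Among them were 3 bitter taste receptors (Tas2r105 at -2.60, Tas2r104 at -2.42, Tas2r136 at -1.73), the skin gene Lce1c (-2.32), the X-linked genes Mageb1 (-2.06) and Tex13c3 (-1.61), the Mas-related receptor gene Mrgprb5 (-1.79), the trypsin gene Prss1 (-1.70), the neutrophil antigen Ly6g (-1.54) and Asmt (-1.51), which encodes the last enzyme of melatonin synthesis. Prss1, whose promoter without CpG is printed above, held 9 and 22 reads at day 1 and 6, 5 and 9 at day 2. In the 9 genes other than Asmt no tile was called and a day 2 library held at most 17 reads over a gene. Each of these 9 lost its call in 2 to 11 alternatives, and their differences at equal depth lay between -1.24 and -0.43, where Prss1 alone kept its call. Reads of such families can also be shared among near-identical copies, and how those reads were counted is not given in the sources used here.

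Asmt stood apart from the other losses. It was at 1.65 and 1.26 at day 1 and at -0.08, 0.09 and -0.16 at day 2, with 100 and 330 reads against 134, 98 and 130, and 3 of its 4 tiles were called lower. Its call (SE 0.20, adjusted p = 0.000729 with limma) held in every alternative. Its level was 2.07 at day 0 and 0.26 in DNMT_WT at day 2. The annotated promoter of Asmt held 6 CpG and only 12.3% G or C, and how well reads can be placed at this gene was not tested. The other 3 genes called lower in the main fit, at equal depth, with voom and without day 1 replicate 2 were Pramel6 (-1.27, a member of a multi-copy family), Il3ra (-0.72, a subunit of the interleukin 3 receptor) and Qrsl1 (-0.64, which helps charge a mitochondrial tRNA). Qrsl1 went from 1.05 and 0.94 to 0.33, 0.37 and 0.37, the smallest spread of the 3. These 3 were picked after their values were seen.

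Large families with few reads leaned to lower values. Of 964 olfactory receptor genes 2 were called higher and 18 lower (median -0.67), of 233 vomeronasal receptor genes 0 higher and 1 lower (median -0.73), and of 32 bitter taste receptor genes 0 higher and 3 lower (median -0.76). The remaining 19488 genes had 1860 called higher and 102 lower, with a median of 0.03. Tiles were also put into 5 classes of equal size by day 0 signal. The lowest class, with a median of 6 reads over the 5 libraries, had a mean difference of -0.77, which was -0.09 at equal depth. In the highest class, with a median of 245 reads, the mean differences were -0.02 and -0.04.

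By tile, 28524 of 1183888 were called higher (2.41%) and 6524 lower (0.551%). At equal depth the split turned, with 2527 higher and 3511 lower, so the direction of the tile count depends on depth, whereas the gene count kept more genes higher in each alternative. Of tiles in protein-coding genes 3.43% were called higher and 0.735% lower, against 1.45% and 0.396% outside annotated genes, where the mean day 1 level was also lower (-1.78, against -0.70). By chromosome the share called higher ran from 0.325% on X to 4.38% on chromosome 11. The mean day 1 level was also lower on X (-2.56, against -0.83 on chromosome 11). So was the share called lower (0.186%, against 0.568%), and the part of signal level in these shares was not tested. Tiles called lower lay mostly where the ES cells were rich in signal: 5286 of 6524 (81.0%) were in the highest of the 5 classes by day 0 signal, against 38.9% of the tiles called higher. The median reads over the 5 libraries were 6 in the lowest class and 245 in the highest, and the part of read number in these shares was not tested.

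Some calls lay side by side. Runs of 3 or more adjacent tiles held 11.5% of the higher tiles and 2.36% of the lower ones, but there were 28524 higher and 6524 lower tiles, and the part of that density in the run lengths was not tested. The longest run had 16 tiles at chr17:29050001-29082000, outside protein-coding genes and 6629 bp from Srsf3, a splicing factor gene, and held 89 and 273 reads at day 1 and 1131, 878 and 1103 at day 2. Next came 15 tiles in Sh3pxd2a, a scaffold of invasive cell protrusions (chr19:47436001-47466000, 132 and 440 reads against 1361, 1137 and 1352), and the stretch in Esrrb. The longest run of lower tiles had 5, at chr4:32162001-32172000, 66413 bp from Bach2, with 165 and 589 reads at day 1 and 368, 207 and 309 at day 2. Runs of 4 lower tiles lay in Glis3, in Ets2, an ETS factor gene, and in Xpot. At the single-tile level the largest gains outside Zfp57 were at C77080 (chr4:129222001-129224000, 1 and 0 reads against 96, 58 and 59) and Sparcl1 (chr5:104108001-104110000, 0 and 1 against 57, 65 and 76). The 5 largest losses held 21 to 31 reads each over the 5 libraries, the largest being in Samd3 (chr10:26252001-26254000, 9 and 13 reads against 1, 1 and 0).

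Shares of reads per library were compared as well. Tiles of protein-coding genes took 59.2% of the reads in both day 1 libraries and 59.7%, 59.9% and 60.1% at day 2, and tiles outside genes 31.7% and 31.6% against 30.9%, 30.7% and 30.6%. The X chromosome took 1.25% in both day 1 libraries and 1.13%, 1.11% and 1.12% at day 2. In the 5% of tiles highest at day 0 the share fell by 1.64 percentage points, from 28.4% in each day 1 library to 26.7%, 26.6% and 27.0%. In the 5% of tiles highest in DNMT_WT at day 2, a set taken from libraries outside the comparison, it rose by 3.28 points, from 25.5% and 25.6% to 28.6%, 29.0% and 28.9%. In each class the days did not overlap, and the exact two-sided permutation test of 3 against 2 libraries gave p = 0.1, the smallest its 10 splits allow, so none could pass 0.05. The day 0 libraries spanned 58.1% to 59.6% in gene tiles, 30.9% to 32.7% outside genes and 1.08% to 1.31% on X. They spanned 28.1% to 34.0% in the tiles highest at day 0 and 22.6% to 27.1% in those highest in DNMT_WT. In each class the range within day 0 was wider than the difference between day 1 and day 2. At equal depth the differences between the days were -1.65 points for the tiles highest at day 0 and 3.28 points for those highest in DNMT_WT.

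Promoter CpG content and gene length went with the calls. RefSeq promoters of 300 bases, from 250 before to 50 after the start, were matched for 16601 of the 20717 genes. Of genes with 0 to 4 CpG there, 4.07% were called higher, of those with 5 to 14 10.1%, and of those with 15 or more 10.3%. The shares called lower were 1.01%, 0.474% and 0.425%, and the median reads per gene over the 5 libraries were 345.5, 1661 and 2492 in the same order, and the part of read number in these shares was not tested. Genes called higher had a median of 18 CpG, genes called lower 5 and all genes 14. The tile over the start was called higher at 12.4% of genes with 5 to 14 CpG, against 7.53% with 15 or more and 3.84% with 0 to 4. By length, 13.2% of genes of 5 to 20 kb were called higher and 1.90% of genes over 100 kb. Short neighbours can share a tile: 579 of the 1862 genes called higher (31.1%) share a tile with another of them, against 6 of the 124 called lower.

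**Figure D4:**
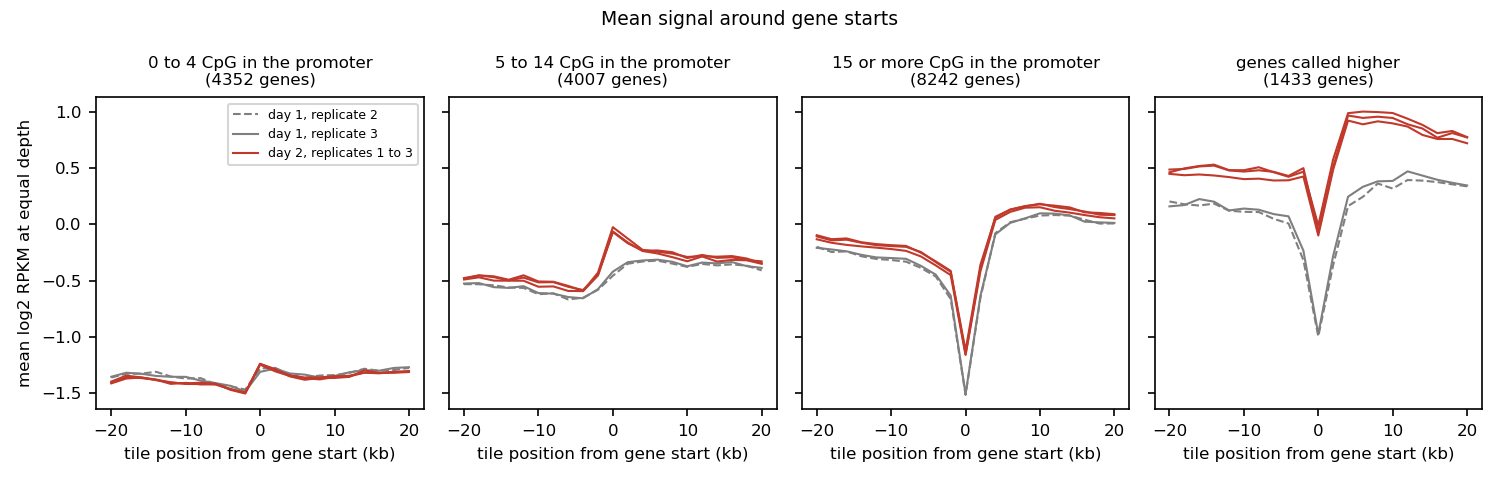
Mean log2 RPKM, at equal depth, of tiles from 20 kb before to 20 kb after the gene start in the 5 libraries (grey day 1, red day 2), for genes with 0 to 4, 5 to 14 and 15 or more CpG in the promoter and for genes called higher, which were chosen on this same comparison. At CpG-rich starts the signal dips on both days, to -1.52 and -1.51 at day 1 and to -1.16, -1.12 and -1.16 at day 2.

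The mean profile shows where along a gene the signal changed. At the start tile of the 8242 CpG-rich genes the mean log2 RPKM at equal depth was -1.52 in replicate 2 and -1.51 in replicate 3 of day 1, and -1.16, -1.12 and -1.16 at day 2, a dip against the flanks on both days that was shallower at day 2. At the 4007 genes with 5 to 14 CpG the start tile went from -0.46 and -0.42 to -0.06, -0.02 and -0.07, and lay above both neighbouring tiles at day 2 but not at day 1. At the 4352 CpG-poor genes it stood at -1.28 and -1.31 at day 1 and at -1.24, -1.24 and -1.25 at day 2. In DNMT_WT at day 2 the start tile of the CpG-rich genes stood at -0.58, -0.53 and -0.59, higher again than in TET_WT on the same day.

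Whether the second day differed from the first was asked with the contrast of the 2 steps, day 2 minus day 1 against day 1 minus day 0, which share the day 1 libraries. For day 1 against day 0 limma called 0 of 20717 genes (0% of genes), with 2551 at an unadjusted p under 0.05, while voom called 98 higher and 126 lower. Leaving out day 0 replicate 2 gave 218 higher and 61 lower, and leaving out day 1 replicate 3 gave 10 and 36, so the count of 0 does not hold without either library. The steps differed at 204 genes, with the second step larger at 198 (0.956%) and smaller at 6 (0.029%). This count was 337 without day 0 replicate 2, 0 without day 2 replicate 2, 1 without day 2 replicate 3, 0 at equal depth, 1 with voom and 0 with the TET_WT libraries alone, so most of this set depends on 1 library or on the method. In the naive list the median difference was 0.36 on the first day and 1.05 on the second, and 2 of 21 genes were called for a larger second step, Socs3 and Manba (-0.09, then 0.90). In the Hox list the medians were 0.12 and 0.59, and in the housekeeping list 0.03 and 0.35, against 0.09 and 0.00 over all genes.

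At all 8 genes with the smallest p for unequal steps the mean was lowest at day 1. A low day 1 mean raises this contrast, so the pattern follows in part from how the 8 were picked. All 8 lost the call at equal depth, with voom, under the replicate block and with the TET_WT libraries alone. Rpp25 had a mean log2 RPKM of -2.09 at day 0, -3.27 at day 1 and -0.43 at day 2. Pcolce stood at -0.997, -1.77 and 0.56, and Tcf21, a mesoderm factor, at 0.91, 0.19 and 1.43. Lbx1, a homeobox factor of muscle precursors, stood at -0.55, -1.65 and -0.03. Gadd45gip1, whose product works in mitochondrial translation, stood at 0.68, 0.13 and 1.06, Ifitm1, a membrane protein induced by interferon, at 0.53, 0.09 and 1.43, and Icam4, a red cell adhesion molecule, at 0.13, -0.36 and 1.10. The smallest drop before the rise was that of 4930404N11Rik, at 0.17, 0.06 and 1.70. No step from day 0 to day 1 was called at any of them, with adjusted p from 0.0854 to 0.772 by limma.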

How the data were processed

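HMCP-seq libraries of genomic DNA were analysed from 11 samples in 4 groups, of which the 5 TET_WT libraries of day 1 and day 2 form the comparison. The values deposited by the authors are log2 RPKM in 2 kb tiles, with a constant for tiles without reads, per the file headers and the values themselves. Per the submitters' processing notes, Bowtie2 2.4.1, cutadapt 2.3 and Trim Galore 0.6.5 were used, with the build GRCm38; their order and roles are not stated. The tool that counted reads and the treatment of duplicate reads are not given in the sources used here.

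Every non-empty value came out as a whole read count within 0.1%. The recovered reads of a library were about 2.32 times the million-read denominator of its RPKM, for a reason not tested. The test was that of limma 3.58.1 (lmFit, then eBayes with a variance trend) under R 4.3.3, fitted on all 11 libraries because day 1 has 2. The code was tested on simulated data. Figures were drawn with matplotlib 3.10.9. Alternatives were the fit of the compared libraries alone, a block for the replicate number, median centring, equal depth, 2 other tile filters, no variance trend, voom, no gene extension and leaving out each of the 5 libraries compared. Leaving out day 0 replicate 2 was chosen after seeing the data.

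Genes named are the 10 largest gains and 10 largest losses among called genes whose days do not overlap, 2 members with the smallest p and the largest opposite difference of each of 17 lists, a set of regulators, the 8 unequal steps with the smallest p and the 5 largest tile gains and losses with at least 20 reads. Other list members are named as called members or as the members not called. Members and lists were chosen with earlier results of these data known.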

Additional observations from a re-analysis of the deposited data

Results flagged for a closer look

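At 8 genes the second day differed from the first by the test of the difference itself (the step from day 1 to day 2 minus the step from day 0 to day 1, limma with Benjamini-Hochberg adjustment over all genes), and they are those with the smallest p among the 204 called. The difference of the steps was 4.02 at Rpp25 (adjusted p = 0.0113), 3.10 at Pcolce (adjusted p = 0.0113) and 2.72 at Lbx1 (adjusted p = 0.02). It was 1.96 at Tcf21, 1.94 at Icam4, 1.78 at Ifitm1, 1.75 at 4930404N11Rik and 1.48 at Gadd45gip1, each with an adjusted p of 0.02. All 8 kept their sign in every alternative, and all 8 lost the call at equal depth, with voom, under the replicate block and with the TET_WT libraries alone. Because the day 1 libraries enter both steps with opposite sign, a low value in the 2 day 1 libraries raises this difference by construction. Rpp25 held 0 and 7 reads in them.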

How the results depend on the processing

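The number of genes called at day 2 against day 1 was 1986, and 246 with median centring, 1094 at equal depth, 1170 with no variance trend and 972 with voom. With the replicate number as a block it was 1327, where the deviations of replicates 2 and 3 at the 2 days correlated at 0.12 over genes in the only pair of pairs; the labels do not say that the numbers mark a shared culture. Leaving out 1 library gave 966 (day 1 replicate 2) to 3568 (day 0 replicate 2), and 1058 and 1169 without day 2 replicates 2 and 3. The share called higher was 93.8%, 70.5% with voom and 84.4% without day 0 replicate 2. Of the 1986 genes 928 were also called at equal depth and 615 with voom, with the same sign.

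The number of tiles called was 35048, and 18540 with median centring (93.9% higher, against 81.4%), 6038 at equal depth (41.9% higher), 16 with no variance trend and 7051 with voom. Leaving out 1 library gave 18231 (day 1 replicate 2) to 45735 (day 0 replicate 2), with 20451 without day 2 replicate 2. The cause was not tested.

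For unequal steps the count was 204, and 0 with the TET_WT libraries alone, 0 with the block, 1 with median centring, 0 at equal depth, 326 with tiles at or above the median, 4 with no variance trend, 1 with voom and 116 with no gene extension. Leaving out 1 library gave 0 (day 2 replicate 2) to 337 (day 0 replicate 2), with 42 without day 1 replicate 2, 45 without day 2 replicate 1 and 1 without day 2 replicate 3. The 5 read shares kept their direction in each alternative run. Otx2 reversed with voom, to -0.0086 from 0.59. Depth in day 1 replicate 2, with a median of 2 reads per tile, limits every statement on sparse tiles.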
